A study of Homo sapiens with 52 samples.

Results

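The transcriptome of WI-38 cells 1 day after a doxorubicin (DXR) pulse was compared with that of untreated WI-38 cells. WI-38 is a strain of non-transformed fibroblasts from human lung that stops dividing after a limited number of doublings. DXR was present at 250 nM during 24 h and was then removed, and the treated cells were harvested 1 day later (DDR-Sen day 1, for DNA damage response-dependent senescence), and young untreated cells at a population doubling level between 32 and 46 were the controls. Both groups have 2 libraries, and the labels do not say whether these came from separate cultures, so the p-values below measure only the spread between these libraries, which may be technical. Genes were included where their mean over the 4 libraries reached 10 normalized counts, which holds for 14832 of the 33118 genes with any reads there. RNF212 at 10.002 lay just inside this limit and HMGA1P3 at 9.994 just outside. The series holds 52 libraries in 26 groups, and cells collected at the end of the pulse (day 0) and 2 days after the wash (day 2) were also used below, with 2 libraries each.

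DXR is an anthracycline that slides between the bases of DNA and holds topoisomerase II on cut strands, which leaves double-strand breaks. Breaks activate the kinases ATM and ATR, which stabilize the transcription factor p53. p53 in turn switches on p21 (CDKN1A), an inhibitor of cyclin-dependent kinases, and hypophosphorylated RB family proteins then assemble repressor complexes, among them DREAM, on the promoters of cell cycle genes. Fibroblasts that stay arrested in this way become senescent, lose lamin B1 and secrete a mixture of cytokines, proteases and growth factors.

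The reads of each library were recovered from the deposited means. The DDR-Sen day 1 libraries held 45.7 M and 26.3 M counted reads (M, mega) and the untreated libraries 19 M and 15.3 M, so that low levels were measured more precisely in treated cells. The reads of 14739 members could be split between libraries and were tested. The other 93 include COL1A1, COL1A2, VIM, DCN and CCND1 and are not tested here. Among genes with a mean of at least 100, the SD of the log2 difference between the 2 libraries was 0.24 in DDR-Sen day 1 and 0.27 in untreated cells. All 14 fibroblast markers were members, and the summed level of the 10 that could be split was 67376 and 58743 normalized counts in DDR-Sen day 1 and 78058 and 70263 in untreated cells. Of 11 epithelial markers KRT14 and NKX2-1 had 0 reads in all 4 libraries. The summed level of the list was 3650 and 2867 normalized counts in DDR-Sen day 1 and 3336 and 2867 in untreated cells. This sum came mainly from KRT8, KRT18 and KRT19, with 1143, 2737 and 2938 reads in the larger DDR-Sen day 1 library. The next highest marker there was CLDN4 with 81 reads, while EPCAM had 24 and CDH1 had 6.

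The difference from untreated cells was broad. Of the 14739 genes tested, 3619 were called at an adjusted p below 0.05 (limma with Benjamini-Hochberg adjustment), which is 24.6% of all genes tested. Of these 1693 were higher in DDR-Sen day 1 (11.5%) and 1926 were lower (13.1%), and the median log2 fold change of all genes was 0.00. The falls were the steeper ones: 507 called genes were lower by 2-fold or more and 195 by 4-fold or more, against 343 and 79 that were higher by these factors. Irrespective of the test, both treated libraries lay above both untreated ones for 4802 genes (32.6%) and below them for 4779 (32.4%). Leaving out the larger or the smaller DDR-Sen day 1 library left 1949 and 2029 calls.

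**Figure D1:**
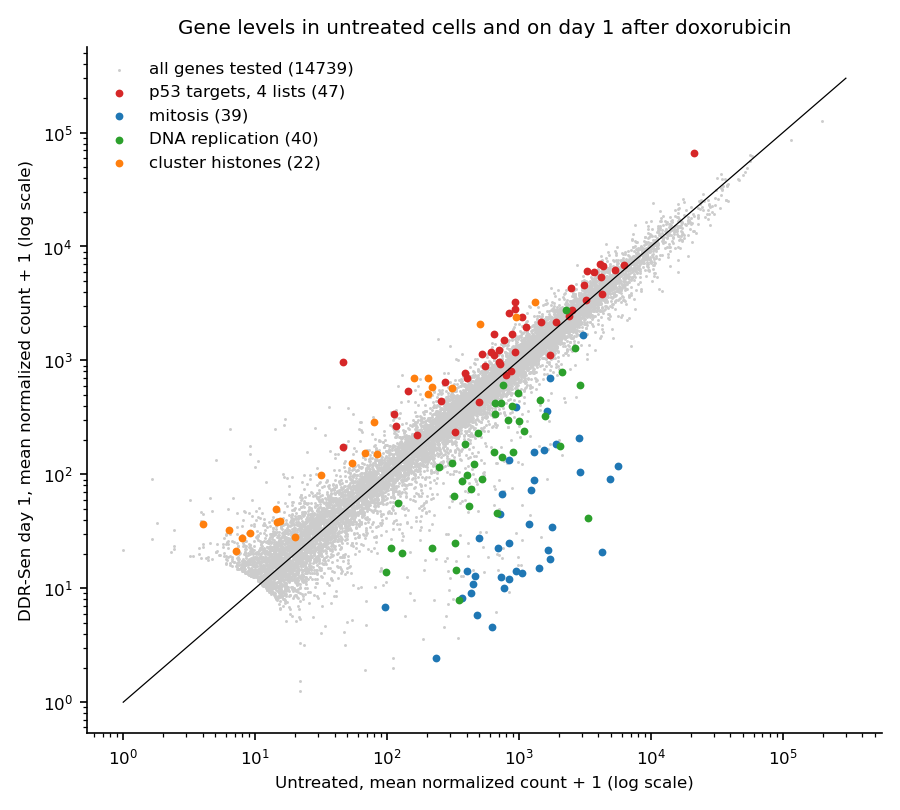
Mean normalized count plus 1 of each tested gene in untreated cells (x axis, log scale) and in DDR-Sen day 1 (y axis, log scale), each the mean of 2 libraries, with the line of equal levels. The 39 mitosis genes and nearly all of the 40 DNA replication genes lie under the line, while most cluster histones and p53 targets lie above it.

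The p53 targets were largely upregulated on day 1. In 4 lists of targets grouped by role, 35 of 47 tested members rose and 2 fell, beside 11.5% and 13.1% of all genes tested. CDKN1A, which encodes p21, was at 65717 and 67702 normalized counts in DDR-Sen day 1 and at 20229 and 21784 in untreated cells. Both treated libraries lay about 3 times above both untreated ones, a log2 fold change of 1.67 ± 0.08 (SE, n = 2 libraries per group, limma adjusted p = 1.6e-05).

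Among the 12 arrest and feedback targets, 8 rose, none fell, and the median log2 fold change was 0.54. MDM2, the ubiquitin ligase that degrades p53, was at 6024 and 6209 in DDR-Sen day 1 and at 3312 and 3232 in untreated cells (log2 fold change 0.90 ± 0.06, limma adjusted p = 0.00011). BTG2, an antiproliferative cofactor of mRNA deadenylation, rose by 1.43 on the log2 scale and the Polo-like kinase gene PLK3 by 0.93. GADD45A and PLK2, which are also textbook targets, had log2 fold changes of 0.13 and -0.12 and did not pass the test.

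The 12 death targets split. 7 rose, with TNFRSF10C, a decoy receptor for the death ligand TRAIL, at 327 and 353 in DDR-Sen day 1 and 106 and 115 in untreated cells (log2 fold change 1.61 ± 0.13). BBC3, which encodes the BH3-only killer PUMA, rose by 1.26 and the quinone reductase-like gene TP53I3 by 1.18 log2 units. PMAIP1, which encodes the BH3-only protein NOXA, fell, from 1533 and 1899.6 in untreated cells to 1075 and 1162 in DDR-Sen day 1 (log2 fold change -0.61 ± 0.11). BAX, the effector that opens the outer mitochondrial membrane, had a log2 fold change of 0.06 and did not pass the test.

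Of the 8 repair and nucleotide supply targets, 5 rose and 1 fell. DDB2 and XPC, which recognize damaged bases in nucleotide excision repair, rose by 0.82 and 0.80, and RRM2B, the p53-dependent ribonucleotide reductase subunit, by 0.81 log2 units. The autophagy-linked p53 cofactor gene TP53INP1 was at 2437 and 2782 in DDR-Sen day 1 and 815 and 874 in untreated cells. FANCC of the Fanconi core complex fell by 0.47 log2 units, a call that was lost without the larger untreated library or without either treated library.

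All 15 targets in metabolism, secretion and other roles rose, with a median of 1.00. SULF2, an extracellular sulfatase that trims heparan sulfate, was at 1091 and 844 in DDR-Sen day 1 and at 39 and 52.2 in untreated cells, a log2 fold change of 4.38 ± 0.19. GDF15, a secreted stress hormone, was at 3195 and 3297 against 980.3 and 895 (log2 fold change 1.79 ± 0.08). ACER2, an alkaline ceramidase, and PTCHD4 rose by 1.92 and 1.90 log2 units. FDXR, the mitochondrial ferredoxin reductase, rose by 1.60 and the antioxidant sestrin gene SESN1 by 1.00 log2 units.

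Genes of mitosis formed the deepest fall. All 39 tested members of the list fell, beside 13.1% of all genes tested, and the median log2 fold change of the list was -5.08. The proliferation marker MKI67 was at 4764 and 3717 normalized counts in untreated cells and at 15.8 and 23.7 in DDR-Sen day 1, a log2 fold change of -7.69 ± 0.21 (limma adjusted p = 3.2e-06). TOP2A, the form of topoisomerase II made in dividing cells and a target of DXR, was at 5078 and 4730.1 against 87.9 and 93.1 (log2 fold change -5.74 ± 0.09). CDC20, an activator of the anaphase-promoting complex, was at 1809 and 1636 against 14.2 and 20.1. Every treated library lay far below every untreated one for these genes. In bulk samples, fewer cells that express a gene and less of its RNA per cell cannot be told apart.

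Several members were close to the detection limit after DXR. UBE2C, the ubiquitin-conjugating enzyme of the anaphase-promoting complex, had 5 and 5 reads in the 2 DDR-Sen day 1 libraries and 489 and 389 in the untreated libraries, although the treated libraries were deeper. CENPA, the centromeric histone H3 variant, had 2 and 2 reads against 197 and 132. Log2 fold changes of such genes depend on the pseudocount of 1. The smallest falls in the list were those of CDC25B at -0.88, INCENP at -1.27 and ECT2 at -1.28 log2 units. Leaving out each library in turn left all 39 calls in place, with medians from -5.26 to -4.83.

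Promoters of cell cycle genes are known to carry a cell cycle homology region (CHR) bound by DREAM, often beside CCAAT boxes. Of the 10 genes with the largest falls, 7 had an entry among the RefSeq promoters (GRCh38.p14, 250 bases before to 50 after the start), and 3 of these held a CHR in the last 100 bases before the start. Their windows of 150 bases, from 100 before to 50 after the start, are shown with the letters of a CHR (TTTGAA or TTCGAA) and of CCAAT, on either strand, in capitals, because these motifs are shared among the mitosis genes. In MKI67 the second CHR and a CCAAT box overlap.
MKI67 (chr10:128126374-128126523, minus strand): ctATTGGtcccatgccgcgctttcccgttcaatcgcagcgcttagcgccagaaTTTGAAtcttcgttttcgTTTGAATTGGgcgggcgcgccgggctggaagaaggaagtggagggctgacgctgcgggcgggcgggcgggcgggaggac
CENPA (chr2:26785956-26786105, plus strand): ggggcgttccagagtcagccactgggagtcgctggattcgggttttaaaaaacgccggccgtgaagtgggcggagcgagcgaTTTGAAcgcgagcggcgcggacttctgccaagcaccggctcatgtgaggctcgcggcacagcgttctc
CDC20 (chr1:43358881-43359030, plus strand): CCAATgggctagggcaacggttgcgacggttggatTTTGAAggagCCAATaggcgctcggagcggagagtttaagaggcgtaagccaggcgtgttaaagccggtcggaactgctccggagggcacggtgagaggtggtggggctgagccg

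CHR letters were found in 25 of 34 mitosis promoters (73.5%), beside 11.3% of the promoters of all genes tested and 16.4% of all RefSeq promoters of the same length. CCAAT was found in 73.5% of mitosis promoters, beside 36.2% of those of all genes tested and 34.6% of all RefSeq promoters. It was also in 83.3% of cholesterol synthesis promoters and 81.8% of cluster histone promoters, but in 15.4% of lysosomal ones. No member of these lists was called lower, so CCAAT letters were not particular to genes that fell. CHR letters were not either, since 27.3% of cluster histone promoters held them. Among the 195 genes called lower by 4-fold or more, 156 had a promoter entry, and 40.4% of these held a CHR and 62.2% CCAAT. Mitosis genes such as MKI67, CENPA and CDC20 are among the 195, so these shares are not separate from those of the mitosis list. A match of letters is a description and does not show that a factor binds there.

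DNA replication genes fell as well, though less deeply. Of 40 tested members 38 fell, 1 rose and 1 did not pass the test, beside 13.1% lower and 11.5% higher of all genes tested. The median log2 fold change of the list was -2.07. RRM2, the S-phase subunit of ribonucleotide reductase, was at 3529 and 3177 in untreated cells and at 30.5 and 50.2 in DDR-Sen day 1 (log2 fold change -6.38 ± 0.21). MCM10 and CDC45, which fire the replicative helicase, fell (log2 fold changes -5.48 and -4.54), and the helicase subunits MCM2 to MCM7 had values between -2.39 (MCM2) and -1.42 (MCM4). The exception was PCNA, the sliding clamp of DNA polymerases and also a p53 target. It was at 2618 and 2866 in DDR-Sen day 1 and 2363 and 2194 in untreated cells (log2 fold change 0.27 ± 0.08, limma adjusted p = 0.0446), and the call was lost without the smaller untreated library or without either treated library.

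The letters TTTNNCGC, the core of E2F sites on either strand, were in 54.3% of 35 replication promoters, beside 10.4% of the promoters of all genes tested and 6.89% of all RefSeq promoters. In the mitosis list the share was 5.88%, and CHR letters were in 5.71% of replication promoters. Cluster histone promoters, of a list in which no member was called lower, held the E2F letters in 27.3% of cases. Among the 156 promoters of genes called lower by 4-fold or more the E2F share was 26.3%. For comparison with those above, windows of 2 replication genes are given, with the E2F letters in capitals. They have the largest falls among the replication genes that hold these letters in the printed window. RRM2, which fell more, had no such letters from 250 bases before to 50 after the start. CDC6 loads the helicase and GINS2 is a subunit of it.
CDC6 (chr17:40287779-40287928, plus strand): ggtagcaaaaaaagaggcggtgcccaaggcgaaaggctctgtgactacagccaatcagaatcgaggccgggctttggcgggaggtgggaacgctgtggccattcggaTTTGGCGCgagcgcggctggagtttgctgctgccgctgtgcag
GINS2 (chr16:85688905-85689054, minus strand): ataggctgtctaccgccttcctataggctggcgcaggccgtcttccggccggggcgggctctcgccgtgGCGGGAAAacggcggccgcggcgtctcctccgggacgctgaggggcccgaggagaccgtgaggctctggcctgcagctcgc
The log2 fold change was -3.93 for CDC6 and -3.70 for GINS2.

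Of 19 genes for E2F, RB and DREAM proteins, 10 fell and none rose, beside 13.1% and 11.5% of all genes tested. MYBL2, which converts the complex to an activator, was at 688 and 646 in untreated cells and 6.84 and 3.65 in DDR-Sen day 1 (log2 fold change -6.79 ± 0.29), and FOXM1, the driver of mitotic transcription, fell by 4.18. E2F8 had 65 and 32 reads in untreated cells and 0 and 2 in DDR-Sen day 1. The repressor subunits E2F4 and RBL2 had log2 fold changes of -0.20 and 0.09 and did not pass the test, and RB1 fell by 0.45.

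Among G1 cyclins, kinases and inhibitors, 2 of 14 tested members rose and 8 fell, and without either treated library 5 fell. With all libraries, 11.5% of all genes tested rose and 13.1% fell, and the 2 members that rose are near the former share. CCND2, a D-type cyclin, was at 1161 and 846 in DDR-Sen day 1 and 353 and 333 in untreated cells (log2 fold change 1.53 ± 0.15). CDKN2B, which encodes the CDK4 and CDK6 inhibitor p15, rose by 1.2, whereas CDKN2A, which encodes p16 and ARF, was at 592 and 704 against 579 and 575 and did not pass the test (log2 fold change 0.16 ± 0.11). CDKN2C, which encodes p18, and CCNE2, a cyclin of the G1/S transition, fell (log2 fold changes -3.37 and -2.76).

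**Figure D2:**
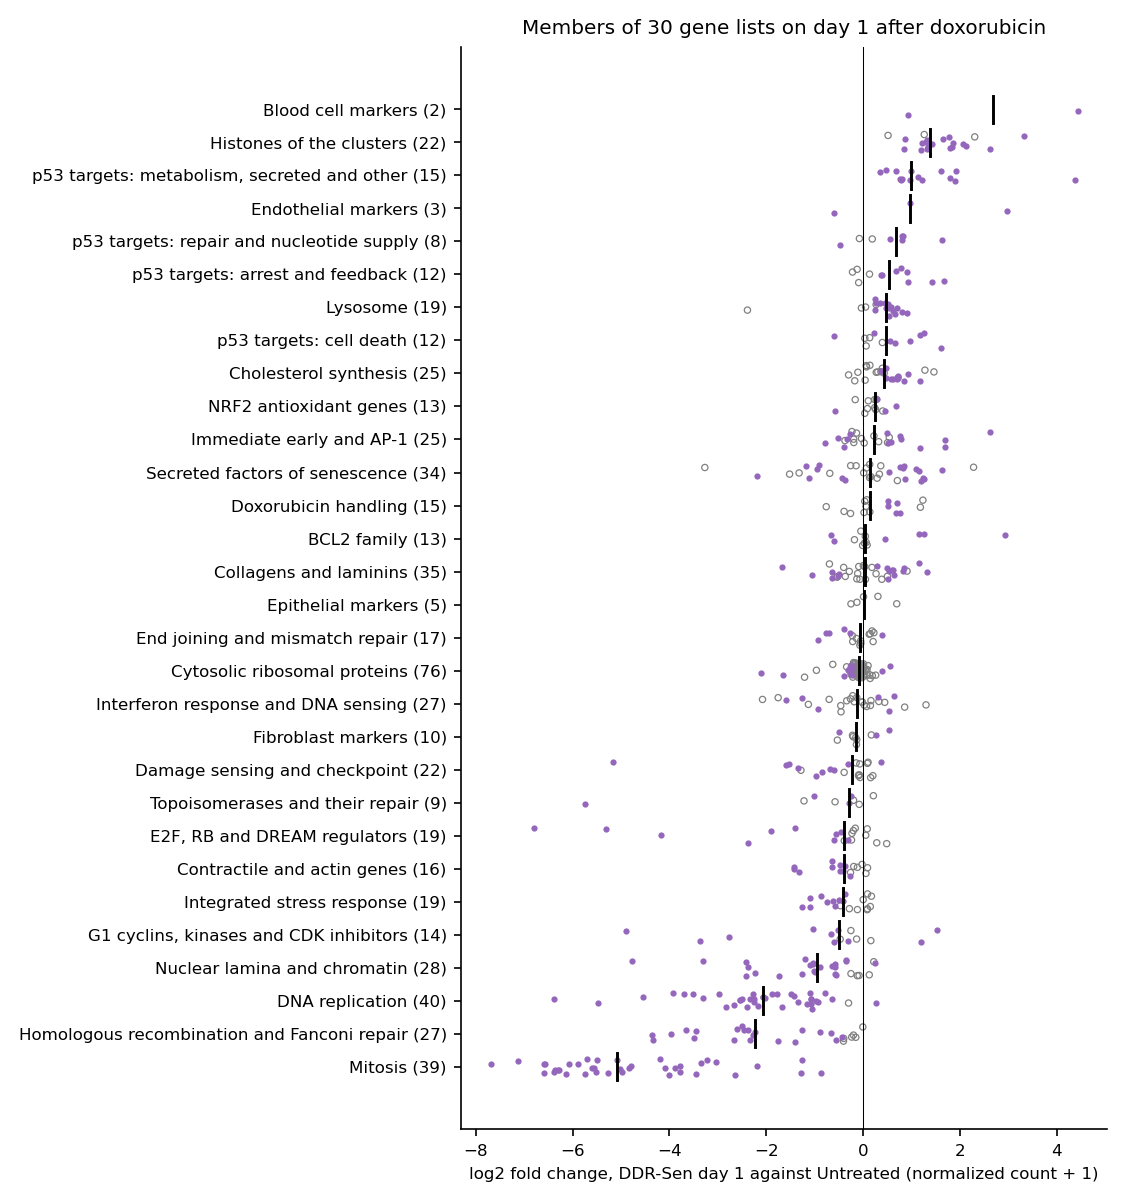
Log2 fold change of each tested member of 30 gene lists in DDR-Sen day 1 against untreated cells (x axis), with the number of tested members after each list name. Filled points are genes called by limma, open points are not called, and the bar is the list median, which runs from -5.08 for mitosis to 1.39 for the cluster histones among lists with over 3 members.

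Of 27 homologous recombination and Fanconi genes, 21 fell and none rose (median log2 fold change -2.24). RAD51AP1, RAD54L and EXO1, which act in strand invasion and end resection, fell (log2 fold changes -4.36, -4.34 and -3.98), as did BRCA1 (-2.39). In end joining and mismatch repair, 5 of 17 members fell, 1 rose and 11 did not pass the test, with a median of -0.07, beside 13.1% lower and 11.5% higher of all genes tested. The difference between the lists was not tested. PARP1, a sensor of strand breaks, was at 2163 and 2007 in DDR-Sen day 1 and 4258 and 3695 in untreated cells, PRKDC, the catalytic subunit of DNA-PK, fell by 0.69, and the end-joining polymerase gene POLM rose by 0.39 log2 units, a call lost when any of the 4 libraries was left out.

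Of 22 damage sensing and checkpoint genes, 9 fell and 1 rose, beside 13.1% and 11.5% of all genes tested. ATM was at 2637 and 3098 in DDR-Sen day 1 and 2146 and 2263 in untreated cells, a log2 fold change of 0.37 ± 0.09 whose call was lost without the larger untreated or the smaller treated library. H2AX, the histone that ATM phosphorylates at breaks, fell from 2571 and 2288 to 794 and 889. CLSPN, the ATR checkpoint mediator claspin, fell by 5.16 log2 units, and smaller falls were found for CDC25A (-1.60) and CHEK1 (-0.97). Among 9 genes for topoisomerases and the repair of their adducts, 4 fell (2 without the larger library of either group), none rose, and TOP2B, the form of topoisomerase II also made in resting cells, was at 3183 and 3663 against 4106 and 4245 (log2 fold change -0.29 ± 0.08), a call lost without either untreated library or the larger treated one.

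The nuclear lamina and chromatin list fell in 22 of 28 members and rose in 1, beside 13.1% and 11.5% of all genes tested. LMNB1, which encodes lamin B1, was at 1318 and 1116 normalized counts in untreated cells and at 40 and 46.5 in DDR-Sen day 1, a log2 fold change of -4.78 ± 0.15 (limma adjusted p = 3.2e-06). LMNA, the source of lamins A and C, had a log2 fold change of -0.12 and did not pass the test. HMGB2 and HMGB1, DNA-bending proteins of chromatin, fell (log2 fold changes -3.30 and -1.03), as did the Polycomb methyltransferase gene EZH2 (-2.42) and the chromatin remodeler HELLS (-2.43). HMGA2 rose by 0.25 log2 units, a call lost without the larger untreated or either treated library.

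Histone genes of the clusters moved the other way. Their main transcripts end in a stem-loop without a poly(A) tail and are made in S phase, and polyadenylated forms are known in arrested and differentiated cells. Of 58 genes with such names, 22 were members, and 19 of these rose and none fell, beside 11.5% and 13.1% of all genes tested. The median log2 fold change of the 22 was 1.39. The other 36 were below the limit of 10. Members with few untreated reads, such as H2BC18 and H4C12, reached it only through the treated libraries. For such genes the limit favours rises, which the count and the median include. H2BC5 was at 670.5 and 724 in DDR-Sen day 1 and at 166 and 150.1 in untreated cells (log2 fold change 2.13 ± 0.11, limma adjusted p = 3.1e-05). H1-2 rose by 2.06 and H4C8 by 1.83 log2 units. H2BC18 had 56 and 46 reads against 1 and 3 and H4C12 44 and 44 against 7 and 1, and these calls were lost without the smaller treated library and, for H4C12, also without the larger. Without the larger or the smaller treated library 13 and 12 of the 22 were called higher. Copies of these genes are near-identical, so that reads can be shared among them, and their level also depends on how RNA was selected.

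Secreted factors of senescence were mixed on day 1. Of 40 members, 34 were tested, 11 of which rose and 7 fell, beside 11.5% and 13.1% of all genes tested. Without the smaller treated library 4 fell, without the larger untreated library 10 fell, and without the smaller untreated library 16 rose. AREG, a ligand of the EGF receptor, was at 165 and 175 in DDR-Sen day 1 and 48 and 61.6 in untreated cells (log2 fold change 1.63 ± 0.19), and the collagenase gene MMP1 and the protease inhibitor gene SERPINE2 rose by 1.25 and 1.25. IL6 was at 52.6 and 40.1 against 59.7 and 93.2 (log2 fold change -0.69 ± 0.29) and CXCL8 at 28.4 and 36.5 against 31.2 and 213, and neither passed the test with all libraries. Both were called lower without the larger untreated library, at -1.0 and -2.69 on the log2 scale. The chemokine gene CCL2 fell by 1.18 log2 units, a call lost without the smaller library of either group. VCAM1 and ICAM1, adhesion receptors for white blood cells, fell (log2 fold changes -2.20 and -1.12). IL1A and IL1B were below the limit of 10.

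Of 27 tested interferon and DNA sensing genes 3 rose, 3 fell and 21 did not pass the test, which is near the share of all genes tested (11.5% higher, 13.1% lower). Without the larger untreated library 6 rose and 2 fell, without the smaller untreated library 2 rose and 6 fell, without the larger treated library 2 rose and 3 fell, and without the smaller treated library 3 rose and 2 fell. CGAS, the sensor of cytosolic DNA, was at 113 and 128 in DDR-Sen day 1 and 232 and 226 in untreated cells (log2 fold change -0.93 ± 0.14). OAS3 and IFI44 fell (log2 fold changes -1.59 and -1.25), IFI6 rose by 0.65, and the transcription factor gene IRF3 rose by 0.54. The call of IFI44 was lost without the larger untreated library or either treated library.

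In the BCL2 family 4 of 13 members rose and 2 fell, and without the larger treated library 2 rose and 1 fell. With all libraries, 11.5% of all genes tested rose and 13.1% fell, and the 2 members that fell are near the latter share. BMF, a BH3-only protein bound to the cytoskeleton in healthy cells, was at 336 and 433 in DDR-Sen day 1 and at 42.8 and 56.9 in untreated cells (log2 fold change 2.93 ± 0.20, limma adjusted p = 0.00012). BCL2L11, which encodes BIM, rose by 1.16 and the survival gene BCL2L1 by 0.44 log2 units. BCL2, another survival gene, fell by 0.65 log2 units. The calls of BCL2L11 and BCL2 were lost without either treated library, and that of BCL2 also without the larger untreated library.

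Lysosomal genes rose moderately, 15 of 19 of them, beside 11.5% of all genes tested. The median log2 fold change of the list was 0.48. CTSB, which encodes the protease cathepsin B, was at 8853 and 8855 in DDR-Sen day 1 and 4864 and 4616 in untreated cells (log2 fold change 0.90 ± 0.06). GAA, the acid glucosidase, rose by 0.81 log2 units. GLB1, the β-galactosidase whose activity marks senescent cells, rose by 0.48 log2 units. Leaving out single libraries left 10 to 12 of the 19 called higher and at most 1 lower.

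Of 25 cholesterol synthesis genes 10 rose and none fell, beside 11.5% and 13.1% of all genes tested. HMGCS1 and IDI1 of the mevalonate pathway rose by 0.71 and 0.61 log2 units, and the methylsterol oxidase gene MSMO1 was at 1701 and 2286 in DDR-Sen day 1 and 1291 and 834 in untreated cells, a rise whose call was lost without the smaller treated library. The count depended on single libraries. It was 3 without the smaller treated library and 17 without the larger untreated library, and without the smaller untreated library 9 rose and 2 fell.

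Integrated stress response genes fell in 10 of 19 cases and none rose, and without the smaller treated library 6 fell. PHGDH and PSAT1 of serine synthesis fell (log2 fold changes -1.26 and -1.09), as did the amino acid transporter gene SLC7A5 (-1.11) and the transcription factor gene ATF4 (-0.41). Of 16 tested contractile and actin genes 10 fell and none rose, and fewer were called lower without either treated library. For both lists, the shares of all genes tested were 13.1% lower and 11.5% higher. ACTA2, the smooth muscle actin, was at 2801 and 2857 in DDR-Sen day 1 and at 7284 and 7937 in untreated cells (log2 fold change -1.43 ± 0.07), and the calponin gene CNN1 fell by 1.33.

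Of 15 genes that transport or reduce DXR, 5 rose and none fell, among them the export pump gene ABCC3 by 0.70, the quinone reductase gene NQO1 by 0.68 and the carbonyl reductase AKR1C1, which has close paralogs that can share its reads, by 0.75 log2 units. ABCB1, the best known DXR export pump, had a log2 fold change of 0.08 and did not pass the test. Among 13 tested NRF2 genes 3 rose and 1 fell, with 2 higher and 1 lower without the smaller treated library, 3 and 2 without the larger untreated library, 5 and 0 without the smaller untreated library and 3 and 0 without the larger treated library. With all libraries, 11.5% of all genes tested rose and 13.1% fell. Immediate early and AP-1 genes rose in 9 and fell in 5 of 25 cases, with NR4A2, a nuclear receptor, at 380 and 356 in DDR-Sen day 1 and 90.9 and 142 in untreated cells, and with FOSL1 and MYC falling (log2 fold changes -0.78 and -0.39). Without the smaller treated library 4 rose and 1 fell, without the larger one 8 rose and 2 fell, and without the larger untreated library 10 rose and 3 fell. The call of MYC was lost without the larger untreated library or either treated library.

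Of 35 tested collagen and laminin genes 11 rose and 6 fell, beside 11.5% and 13.1% of all genes tested. The median log2 fold change of the list was 0.03. Without the smaller treated library 2 fell (median -0.01), and without the smaller untreated library 9 fell (median -0.11). COL7A1, the anchoring fibril collagen, was at 6946 and 6774 in DDR-Sen day 1 and 3032 and 2454 in untreated cells (log2 fold change 1.33 ± 0.10). The basement membrane chain COL4A6 rose by 1.15, while COL15A1 and COL4A1 fell (log2 fold changes -1.68 and -0.64). Of 76 tested genes for cytosolic ribosomal proteins, many of which have processed copies that can share reads, 63 did not pass the test, 2 rose and 11 fell, and the median was -0.09. The share that fell is near the 13.1% of all genes tested. The number that fell was 5 and 3 without the larger and the smaller treated library and 7 and 5 without the larger and the smaller untreated library. Those higher were RPS27L, also a p53 target, at 0.56 and RPS19 at 0.38 log2 units, whose call was lost without the larger treated library. The paralogs RPL39L and RPL22L1 fell (log2 fold changes -2.11 and -1.65).

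A few markers of other cell types were called higher from low levels, in treated libraries that were the deeper ones. The limit of 10 on the mean favours such rises. PTPRC and PECAM1 reached it only through the treated libraries, so their direction was set in advance, and 8 of 10 blood markers were below it. PTPRC, which encodes the leukocyte phosphatase CD45, had 42 and 21 reads in DDR-Sen day 1 and 0 and 0 in untreated cells, and CD14, a receptor for bacterial lipopolysaccharide, had 88 and 47 against 17 and 15. The call of PTPRC was lost without the larger treated library and that of CD14 without this one, the smaller treated or the larger untreated library. The summed level of the 10 blood markers was 80 and 73 normalized counts in DDR-Sen day 1 and 24.7 and 26.9 in untreated cells, with CD3E, MS4A1 and HBA1 at 2 reads or fewer in each library. Of 7 endothelial markers, PECAM1 had 39 and 17 reads against 0 and 3 and VWF 134 and 81 against 27 and 24, both lost without either treated library, CDH5 had 0 in all 4, and TEK fell by 0.61 log2 units. Their part in the results was not tested.

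Some of the largest rises outside these lists were steady between libraries. RGS5, a regulator of G protein signaling, was at 1438 and 1614 in DDR-Sen day 1 and 236 and 251 in untreated cells (log2 fold change 2.64 ± 0.10). The lysosomal fucosidase gene FUCA1 was at 396 and 380.5 against 29.9 and 41.1, and the tetraspanin gene TSPAN11 and VWCE rose by 2.51 and 2.62 log2 units. Others were uneven. MICA, a ligand of the NKG2D receptor of natural killer cells, was at 207 and 237 against 19.5 and 45.8, and its libraries were over 4 times apart in 6 groups of the series. CLCA2 was at 401 and 136 against 9.09 and 22.1. DHRS1 was at 369 and 131 against 7.79 and 3.16 and CDK7 at 72.1 and 429 against 9.09 and 17.4. For DHRS1 and CDK7 the libraries of 1 group differed by over 4 times in several groups of the series. The rises of DHRS1 and CDK7 are therefore uncertain.

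Day 1 was next compared with day 0, the end of the pulse. This comparison shares the DDR-Sen day 1 libraries with that against untreated cells. Of 14737 genes tested, 2300 were called (15.6%), 995 higher on day 1 (6.75%) and 1305 lower (8.86%). Without the larger or the smaller day 1 library 913 and 781 were called, and 1381 without the smaller day 0 library.

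The p53 targets had come down from day 0. Of the 47 tested members of the 4 lists, 34 were lower on day 1 than on day 0 and none was higher, beside 8.86% and 6.75% of all genes tested. On a scale common to the 4 groups, GDF15 was at 1196 and 1098 normalized counts in untreated cells, 13122 and 20169 on day 0, 3928 and 4035 on day 1 and 3581 and 3530 on day 2. Its level on day 1 was below both day 0 libraries and above both untreated ones (log2 fold change against day 0 -2.03 ± 0.18, limma adjusted p = 0.00305). TP53I3 and TNFRSF10C were lower than on day 0 (log2 fold changes -1.93 and -1.92), as were CDKN1A (-0.43) and MDM2 (-0.75). PCNA was at 7521 and 10106 on day 0 and 3219 and 3508 on day 1.

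**Figure D3:**
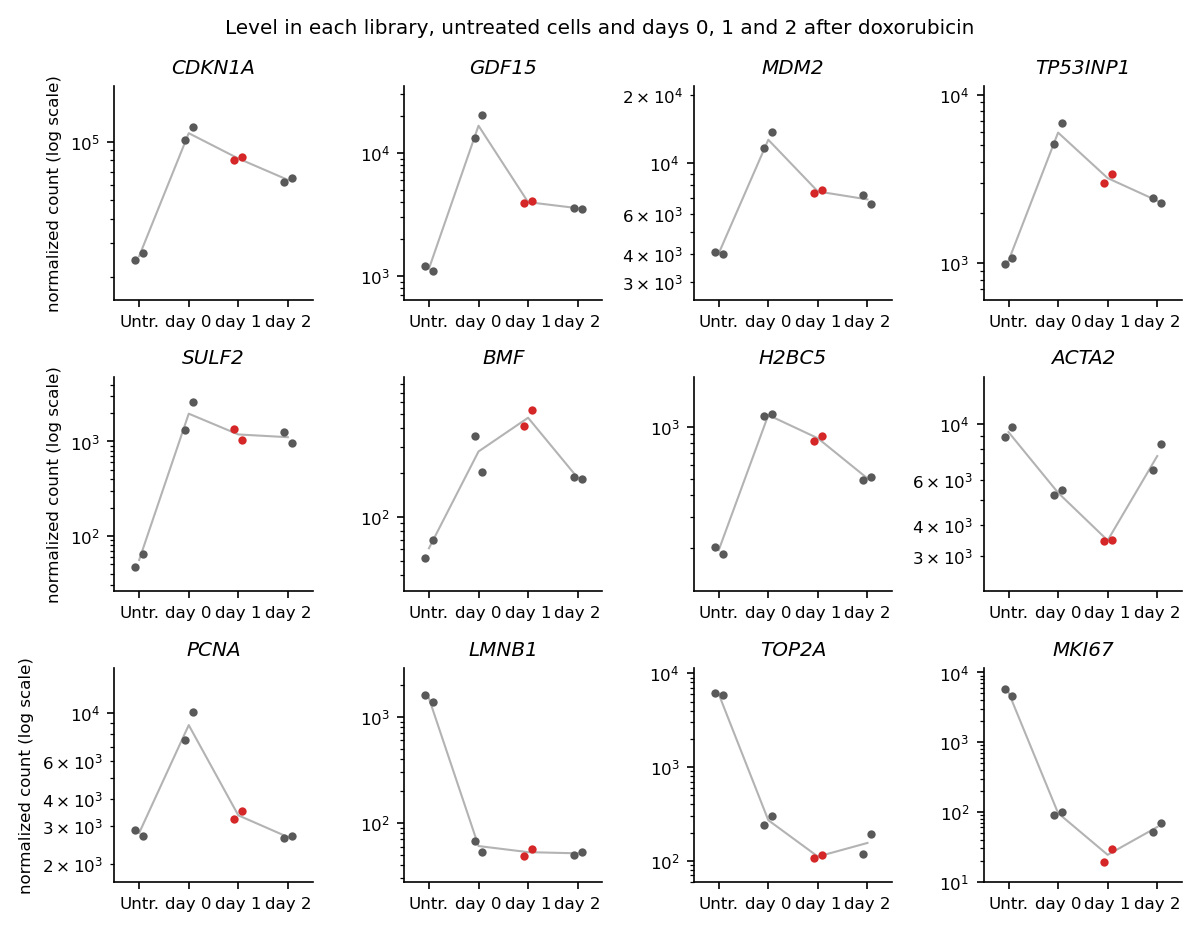
Normalized count of 12 genes in each library (y axis, log scale, on 1 scale for the 4 groups) in untreated cells and on days 0, 1 and 2 after DXR, with lines through the group means and day 1 in red. CDKN1A, GDF15, MDM2, TP53INP1 and PCNA peaked on day 0, ACTA2 was lowest on day 1, and LMNB1 was at a similar low level on days 0, 1 and 2.

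The fall of the cell cycle genes was mostly in place on day 0. Of 39 mitosis genes, 29 did not differ by the test between day 1 and day 0, 9 were lower and 1 was higher, and the median was -0.50. MKI67 was at 91.1 and 101 on day 0 and 19.4 and 29 on day 1 (log2 fold change -1.98 ± 0.26). UBE2C and BIRC5, the mitotic regulator and apoptosis inhibitor survivin, were lower on day 1 (log2 fold changes -2.39 and -2.38). Of 40 replication genes 8 were lower and 7 higher, beside 8.86% and 6.75% of all genes tested. RRM2 and TK1, which supply nucleotides, were lower (log2 fold changes -2.44 and -2.46), and the helicase gene MCM6 was higher by 0.89.

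Cholesterol synthesis genes were the list with the most members higher than on day 0, 16 of 25, with none lower and a median of 0.69. The squalene epoxidase gene SQLE was higher by 1.17 and MVD by 1.03 log2 units. Histones of the clusters were lower than on day 0 in 12 of 22 cases and higher in none. Secreted factors were lower in 12 and higher in 2 of 34 cases. CXCL1 was lower (log2 fold change -3.92), as were CXCL8 (-1.76) and IL6 (-1.32). On the common scale CXCL1 was at only 13.8 and 22.3 on day 0 and 1.29 and 0 on day 1. Its log2 fold change therefore depends on the pseudocount of 1. Interferon genes were lower in 7 of 27 cases, such as IFIT3 (log2 fold change -1.23). Of all genes tested, 8.86% were lower and 6.75% higher than on day 0.

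The genes with the largest differences from day 0 were partly uneven between libraries. APOBEC3B, a cytidine deaminase with close paralogs, and PCLAF, a PCNA-binding factor, were lower (log2 fold changes -3.51 and -3.22), as was CENPM (-3.02). RNH1, EEF1D, FBL, GSDMD, DHRS1, VAMP7 and NAPRT were the others, and for each of these as for CENPM the libraries of at least 1 group in the series differed by over 4 times.

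Day 2 differed less from day 1. Of 14738 genes tested, 821 were called (5.57%), 360 higher on day 1 (2.44%) and 461 lower (3.13%). Without the larger or the smaller day 1 library 1430 and 1558 were called, and without the larger or the smaller day 2 library 350 and 294. Of the 47 p53 targets 12 were higher on day 1 than on day 2 and 2 were lower, with CDKN1A higher by 0.36 and TP53I3 by 0.54 log2 units. PMAIP1 was lower (log2 fold change -0.90). Cluster histones were higher in 8 of 22 cases, such as H2BC5 by 0.77 log2 units.

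Of 15 tested contractile genes 10 were lower on day 1 than on day 2 and none was higher, beside 3.13% of all genes tested. Against day 0, 4 of the 15 were lower on day 1 and 11 were not called, beside 8.86% lower of all genes tested. The median log2 fold change of the list against day 0 was -0.04. ACTA2 was at 8890 and 9741 in untreated cells, 5226 and 5491 on day 0, 3444 and 3497 on day 1 and 6597 and 8370 on day 2 (log2 fold change against day 2 -1.10 ± 0.10, limma adjusted p = 0.00081). Both day 1 libraries lay below all 6 others. Outside the contractile list, the actin-binding protein gene SYNPO2 was lower (log2 fold change -1.67). The actomyosin scaffold gene ANLN, a member of the mitosis list, was lower as well (-1.31). CDK1 and MKI67 were lower (log2 fold changes -1.52 and -1.30), and MMP1 was higher by 1.04. The 5 largest falls were those of HRAS, USP53, SYNPO2, CDK1 and ANLN and the 5 largest rises those of DHRS4L2, FBL, ATG16L1, CUTA and HPS5. For each of these except USP53 and ANLN the libraries of at least 1 group of the series differed by over 4 times.

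**Figure D4:**
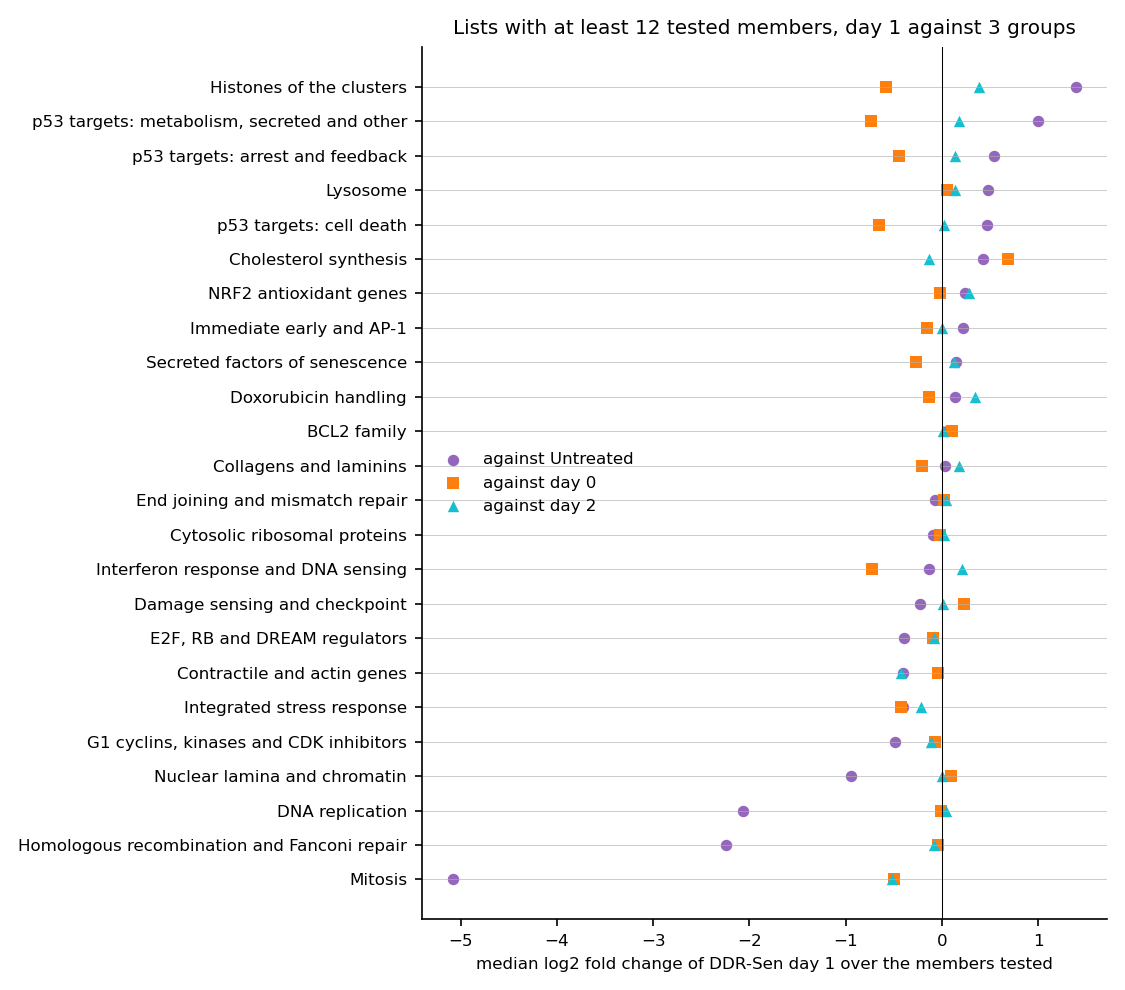
Median log2 fold change of DDR-Sen day 1 (x axis) over the tested members of each list with at least 12 of them, against untreated cells, day 0 and day 2, which share the day 1 libraries. The p53 lists and the cluster histones lie above 0 against untreated cells and below 0 against day 0, and cholesterol synthesis lies above 0 against both.

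Calls were also counted by the span of genes. Of the genes tested, 13303 (90.3%) were found in RefSeq by symbol, 12059 of them protein coding. Among 420 protein coding genes that span under 3 kb, 16.4% rose and 8.1% fell. Among 1923 that span 100 to 300 kb, 9.67% rose and 16.5% fell, and the median log2 fold change was 0.115 in the first class and -0.061 in the second. In the class of 484 genes over 300 kb, 13.2% rose and 17.6% fell and the median was -0.030, so that the order did not run through all classes. These shares are descriptions over genes, which are not replicates.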

How the data were processed

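WI-38 mRNA-seq libraries were prepared and sequenced by the authors, and GEO's labels name GRCh38 (hg38) and the tools Trim Galore, HISAT2, HTSeq, featureCounts and, for the authors' comparisons, DESeq2; versions are not given in the sources used here. The deposited tables hold, per gene, a mean over the normalized counts of 2 treated and 2 untreated libraries, which was treated as a signal, with the authors' log2 fold change, its error, p-values and adjusted p-values. As no value of a single library was given, whole reads were recovered from the means. The untreated reads, shared by the 25 distinct tables, came out alike from 3 sets of 3 tables given to 15 digits for 33111 genes and from 2 sets of 5 tables for 7. Treated reads followed from the day 1 mean alone for 11587 members. For 3152 members several combinations fitted the mean, and the deposited log2 fold change and error on the log2 scale were used to choose the combination (misfit under 2e-05, median 1.4e-07), which ties their reads to the authors' fit. The other 93 members were not split. Day 0 and day 2 reads were recovered in the same way. The authors' values were not reported or compared. Which library is replicate 1 or 2 is not known, so libraries are named by size.

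Normalized counts, on the deposited scale against untreated cells and with median-ratio size factors against day 0 and day 2, were tested with limma 3.58.1 (lmFit and eBayes with trend, R 4.3.3) as log2(normalized count + 1), which understates changes of low genes. Benjamini-Hochberg adjustment of p-values ran over the genes tested, and genes were called at 0.05. Errors are SE. Scripts were tested on simulated data. The alternatives are given in the closing section.

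Members and gene lists were chosen with earlier results of these data known. Named genes are a fixed set (p21 and other genes of the response), the 10 largest called rises and falls with a mean of at least 100 and groups that do not overlap, up to 3 called rises and falls per list, and the 5 largest rises and falls against day 0 and day 2; other list members named were chosen after their values were seen. Promoters come from RefSeq (GRCh38.p14), matched by symbol for 10455 tested genes. Some named genes are not reported here.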

Additional observations from a re-analysis of the deposited data

How the results depend on the processing

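No paired analysis was possible because the recovered libraries carry no replicate number. Against untreated cells 3619 genes were called (1693 higher, 1926 lower). An adjusted p under 0.01 gave 1674 (697 and 977) and a log2 fold change of at least 1 gave 850 (343 and 507), both by construction. Leaving out 1 library gave 1949 to 3467 calls, with 801 to 1681 higher and 1148 to 1832 lower. Against day 0 this range was 781 to 2916, with 234 to 1374 higher and 547 to 1542 lower, and against day 2 it was 294 to 1558, with 130 to 669 higher and 164 to 917 lower. The lone library of a group is then assumed to vary like the others. Voom weights, library totals, pseudocounts of 0.25 and 4, the filters tried and the libraries of all groups kept the counts within 1.5 times. Of the named genes 1 reversed, FBL, at -1.13 without the smaller and 2.73 without the larger untreated library. Of the 146, 142 kept their call and direction with voom and 145 with library totals. Without a limit on the mean, which adds genes with few reads, the median log2 fold change of all genes tested was 0.186 in place of 0.002.

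Further alternatives were chosen after seeing the data. Without 157 genes whose libraries differ by over 4 times in some group the counts stayed within 1.5 times. Genes fixed by the mean alone gave 2562 calls of 11587 against untreated cells (22.1%), 1115 of them higher, 1706 of 11526 against day 0 (14.8%) and 553 of 11587 against day 2 (4.77%), 305 of them lower.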

Other observations

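A small set of genes differed by over 4 times between the 2 libraries of a group. Of 10519 genes with a mean of at least 100, 157 (1.49%) did so in at least 1 of the 26 groups and 27 in at least 10 groups, and the number per group ran from 15 to 78. In untreated cells there were 18 such genes, in DDR-Sen day 1 there were 22, and 7 were in both. CUTA was over 4 times apart in 16 groups, and over all 52 libraries it ran from 39.4 to 3451 normalized counts. STING1, which encodes the adaptor of the DNA sensor cGAS, was apart in 13 groups, and DHRS1, LY6E and GSDMD in 12 each. Of the genes called against untreated cells, 60 are in this set. What these genes share was not tested.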
